A study of Homo sapiens with 6 samples.

Results

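The genes described here encode 10 transporters that carry cystine, neutral amino acids and, for 1 of them, cationic amino acids across the plasma membrane, or a subunit of such transporters. They were found by symbol on the sense strand in all 6 libraries, and each of the 10 had its own row among the 22984 gene rows. The list was chosen from genes of known function with the fold changes against DMSO and the calls of these same libraries already in view, so the values of its genes are a description and no p is given for them. The libraries were made by Bru-seq, in which RNA made during a bromouridine pulse of 0.5 h is captured and sequenced, so that transcription is read rather than the pool of mature mRNA. All 6 came from the human colorectal carcinoma line HCT116. Both DMSO cultures were kept in 0.01% DMSO for 4 h. Single cultures received GSTO1 siRNA at 10 nM for 24 h (siGSTO1), the GSTO1 inhibitor C1-27 at 1 μM for 4 h or for 24 h, and C1-14, an analogue without activity, at 10 μM and 4 h. The sample label gives 24 h for siGSTO1, whereas the wording of the methods can be read as 4 h. A culture with a non-targeting siRNA and a DMSO culture of 24 h were not analysed here, so at 24 h the effect of the treatment, of transfection and of time in culture cannot be told apart. Each treatment has 1 library, and the spread between cultures comes from DMSO alone (n = 2). The labels do not say whether these cultures were set up on separate days, so that spread may be technical.

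GSTO1 is an omega-class glutathione transferase that acts mainly in thiol-transfer reactions between glutathione and other molecules, and glutathione is built from cysteine, which most cultured cells take up as cystine. SLC7A11 brings cystine in and lets glutamate out, and it works only when joined to the heavy chain SLC3A2 (CD98), which also carries the exchanger of large neutral amino acids SLC7A5. Cells short of amino acids are known to raise transcription of many of these genes through the factor ATF4, and NRF2 (NFE2L2) is known to act on SLC7A11 as well.

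Sense-strand counts came to between 18112861 (DMSO culture 1) and 36841146 (C1-27 at 24 h) per library. Antisense reads were 2.85% to 3.96% of the gene reads on both strands. GSTO1 itself had an RPKM (reads scaled to gene length and to the mapped reads of the library) of 3.51 and 3.72 in DMSO, 2.70 with siGSTO1, 3.78 and 4.21 with C1-27 at 4 h and 24 h, and 3.82 with C1-14. The siGSTO1 value was thus the lowest, at 0.748 of the DMSO mean, in RNA that is read before an siRNA is known to act. Of 8 colorectal epithelial markers, EPCAM and the keratins KRT8, KRT18 and KRT19 were between 2.57 and 11.9 RPKM, CDH1 and CLDN4 were between 0.321 and 1.503, CDX2 was at 0.383 or below, and VIL1 was at or near 0. Their summed RPKM ranged from 15.3 (C1-27 at 24 h) to 33.4 (C1-14). Of 5 markers of other cells, CD3E was at 0, PTPRC and COL3A1 were at or near 0, and COL1A1 and PECAM1 did not exceed 0.374. In such bulk RNA, fewer cells transcribing a gene and less transcription per cell cannot be told apart.

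In nascent RNA of the DMSO cultures the 10 genes spanned a wide range, and their order changed little between the DMSO cultures. Per length of gene, SLC38A2 was highest in every library, with 15.4 and 18.3 RPKM in DMSO. Next came SLC3A2, SLC38A1, SLC7A1, SLC1A5 and SLC7A5, whose DMSO means lay between 1.84 and 4.18 RPKM. SLC7A1, SLC1A5 and SLC7A5 (means of 2.29, 2.12 and 1.84) stood in that order within both cultures, although each was lower in culture 2. SLC3A2 and SLC38A1 (4.18 and 3.38) changed places between the cultures. SLC7A11 followed at 0.551 ± 0.0150 (SD, n = 2). SLC43A1, SLC6A9 and SLC1A4 were the lowest in all 6 libraries, with means of 0.116, 0.0769 and 0.0441. Culture 2 was below culture 1 at 8 of the 10 genes, with SLC38A1 and SLC38A2 as the exceptions, and the ratio of culture 2 to culture 1 ran from 0.573 (SLC6A9) to 1.18 (SLC38A2). Over 7825 genes, 58.6% were lower in culture 2.

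**Figure D1:**
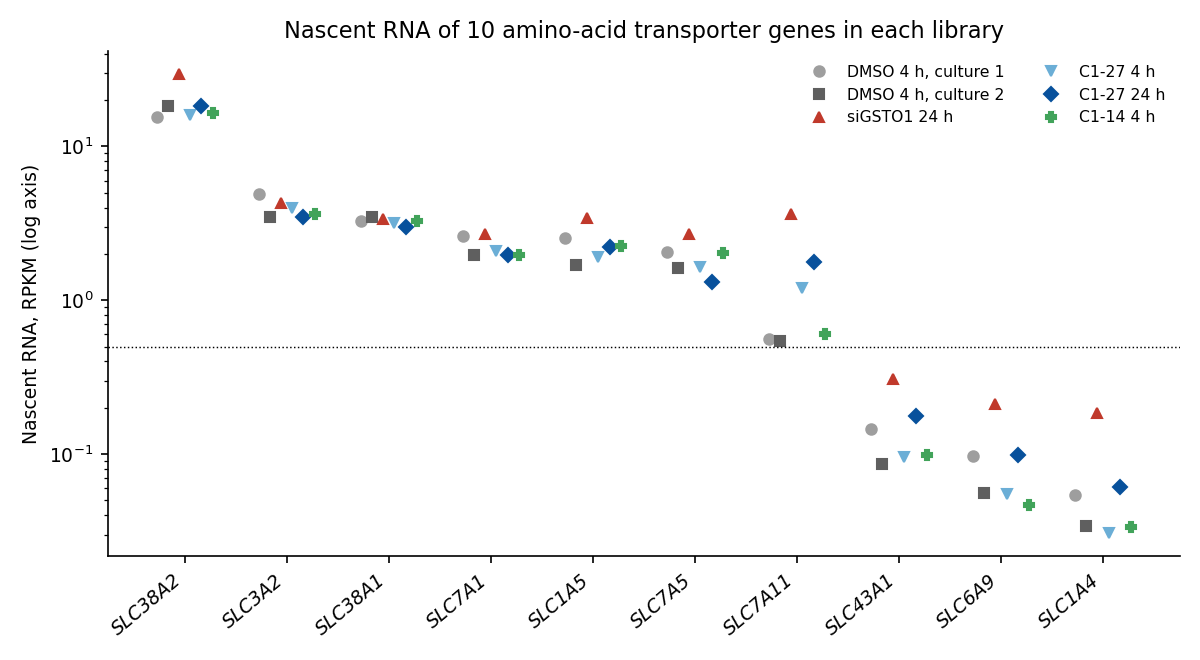
Nascent RNA of the 10 genes in RPKM on a log axis, ordered by their DMSO mean, with 1 point per library and the dotted line at 0.5 RPKM. The siGSTO1 triangle lies above both DMSO points at 8 genes, and at SLC7A11 both C1-27 points lie above them as well. No share of all genes was taken for that count.

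SLC7A11, the cystine and glutamate exchanger, had the largest fold of the 10 genes with siGSTO1 and with C1-27 at both times. It lies on the minus strand of chromosome 4 from 139085248 to 139163503 (hg19, as for all positions of whole genes below). Its RPKM was 0.562 and 0.540 in DMSO, 3.62 with siGSTO1, 1.19 with C1-27 at 4 h, 1.78 with C1-27 at 24 h and 0.603 with C1-14. The libraries of siGSTO1 and of C1-27 at both times were thus far above both DMSO cultures, which differed by little at this gene. C1-14 lay just above the higher DMSO culture. Against the DMSO mean the RPKM was 6.56-fold with siGSTO1, and 6.44 and 6.69 against cultures 1 and 2 taken singly. C1-27 gave 2.17-fold at 4 h (2.12 and 2.21) and 3.24-fold at 24 h (3.18 and 3.30), and C1-14 gave 1.09-fold (1.07 and 1.12). These rest on 1028 and 1725 counts in DMSO, 7429 with siGSTO1, 3612 and 6425 with C1-27 and 1636 with C1-14. The exact 95% interval from the counts (Clopper-Pearson on the pooled DMSO counts, counting error only) was 6.31 to 6.89 for siGSTO1, 2.07 to 2.29 and 3.11 to 3.40 for C1-27, and 1.03 to 1.17 for C1-14. In rank by fold among the genes that passed the filter described below, SLC7A11 was number 5 of 8138 with siGSTO1, 4 of 7667 with C1-27 at 4 h, 5 of 7918 at 24 h and 1688 of 7784 with C1-14. The doses of C1-27 and C1-14 differ, so their values at 4 h stand side by side and are not compared. A gene on the opposite strand, LOC641364, overlaps the end of SLC7A11. It had 142 and 143 counts in DMSO and 162 with siGSTO1, 1.29-fold in RPKM, and the antisense share of reads over the rest of SLC7A11 was at most 0.194% in any library.

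SLC3A2, the heavy chain without which SLC7A11 and SLC7A5 do not reach the cell surface, stayed near its DMSO level in the libraries where SLC7A11 was highest. On the plus strand of chromosome 11 (62623484 to 62656355), its RPKM was 4.87 and 3.49 in DMSO, 4.30 with siGSTO1, 3.96 and 3.49 with C1-27 at 4 h and 24 h, and 3.61 with C1-14. All 4 treated values fell within the DMSO range or, for C1-27 at 24 h, at its lower edge. Within a library, the ratio of SLC7A11 to SLC3A2, which needs no scaling between libraries, was 0.115 and 0.155 in DMSO and 0.167 with C1-14. It was 0.840 with siGSTO1 and 0.301 and 0.512 with C1-27 at 4 h and 24 h.

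The RPKM of SLC7A11 was also set against the sum over the 6 light chains known to pair with SLC3A2 (SLC7A5, SLC7A6, SLC7A7, SLC7A8, SLC7A10 and SLC7A11). The grouping was made after their values were seen. SLC7A11 is part of that sum, so its share restates its own RPKM and is no separate evidence. SLC7A8 had at most 43 counts in a library, SLC7A7 at most 8 and SLC7A10 had 0. The sum is thus in effect that of SLC7A5, SLC7A6 and SLC7A11. Their summed RPKM was 5.11 and 4.09 in DMSO, 8.21 with siGSTO1, 4.91 and 4.99 with C1-27 at 4 h and 24 h, and 4.56 with C1-14. SLC7A11 made up 10.99% and 13.2% of this sum in DMSO and 13.2% with C1-14. Its part was 44.1% with siGSTO1, 24.3% with C1-27 at 4 h and 35.8% at 24 h. SLC7A6, an exchanger of cationic for neutral amino acids, went from 48.5% and 46.7% in DMSO to 22.7% with siGSTO1. A larger sum by itself lowers that share. The RPKM of SLC7A6 was 1.86 with siGSTO1 against 2.48 and 1.91 in DMSO.

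**Figure D2:**
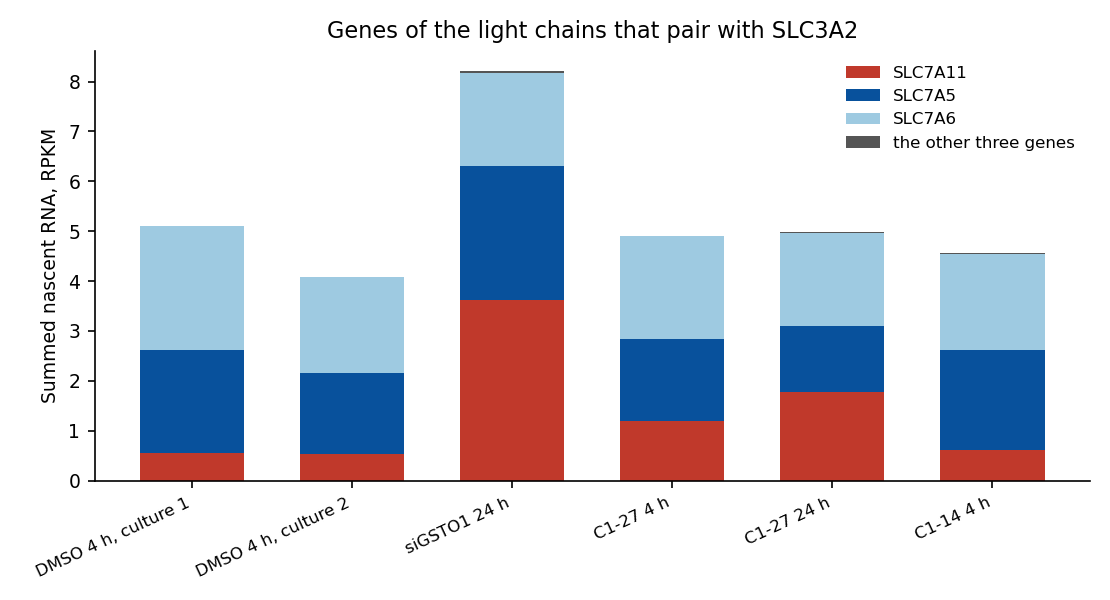
RPKM of the genes for the 6 light chains that pair with SLC3A2, stacked for each library. The bars of siGSTO1 and of C1-27 at 24 h hold the widest SLC7A11 segments, at 44.1% and 35.8% of the sum.

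SLC7A5 (LAT1), which exchanges leucine and other large neutral amino acids for glutamine, lay on opposite sides of DMSO in the 24 h libraries. It lies on the minus strand of chromosome 16 (87863629 to 87903100). Its RPKM was 2.06 and 1.63 in DMSO, 2.69 with siGSTO1, 1.64 and 1.31 with C1-27 at 4 h and 24 h, and 2.02 with C1-14. The siGSTO1 value was above both DMSO cultures, at 1.46-fold of their mean (1.31 and 1.66 against each), and the 24 h C1-27 value was below both, at 0.712 (0.637 and 0.807). The values at 4 h lay between those of the DMSO cultures. Reads of SLC7A5 are uncertain where near-identical copies exist. The pseudogene SLC7A5P2 had 12.1 and 8.42 RPKM in DMSO, 11.7 with siGSTO1 and 7.90 with C1-27 at 24 h, and SLC7A5P1 had 40 counts or fewer in every library. How the counting divided reads between them is not given in the sources used here. SLC43A1 (LAT3), a facilitated carrier of the same amino acids that needs no heavy chain, lies on the minus strand of chromosome 11 (57252004 to 57283192). It had 106 and 110 counts in DMSO, 251 with siGSTO1, 115 and 255 with C1-27 at 4 h and 24 h, and 106 with C1-14. In RPKM these were 0.145 and 0.0865 in DMSO, 0.306 with siGSTO1, 0.0953 and 0.178 with C1-27, and 0.0980 with C1-14. The siGSTO1 library stood above both DMSO cultures at 2.64-fold (2.11 and 3.54), and C1-27 at 24 h did so at 1.53-fold (1.22 and 2.05).

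SLC7A1 (CAT1) carries the cationic amino acids arginine and lysine. On the minus strand of chromosome 13 (30083551 to 30169825), its RPKM was 2.61 and 1.98 in DMSO, 2.70 with siGSTO1, 2.08 and 1.98 with C1-27 at 4 h and 24 h, and 1.98 with C1-14. The siGSTO1 value exceeded the higher DMSO culture by only 1.04-fold, and the values of the other treatments lay at or near that of the lower one.

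The sodium-dependent SLC1 carriers differed by far in level. SLC1A5 (ASCT2), the glutamine carrier, lies on the minus strand of chromosome 19 (47278140 to 47291842). Its RPKM was 2.55 and 1.69 in DMSO, 3.45 with siGSTO1, 1.92 and 2.21 with C1-27 at 4 h and 24 h, and 2.25 with C1-14. Of these, the siGSTO1 value lay above both DMSO cultures, at 1.63-fold of their mean (1.35 and 2.04). SLC1A4 (ASCT1), which carries serine, alanine and cysteine, lies on the plus strand of chromosome 2 (65215579 to 65251000). It had few reads, with 45 and 49 counts in DMSO, 172 with siGSTO1, 42 and 100 with C1-27 at 4 h and 24 h, and 41 with C1-14. Its RPKM of 0.0543 and 0.0339 in DMSO compares with 0.185 with siGSTO1, 4.19-fold of the mean (3.40 and 5.45), with an exact 95% counting interval of 3.46 to 5.81. The value with C1-27 at 24 h was 1.39-fold (1.13 and 1.81).

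Most reads over SLC1A4 came from the opposite strand, which sets it apart from the other 9 genes. The antisense share was 64.8% and 69.6% in DMSO, 55.5% with siGSTO1, 68.8% and 67.2% with C1-27 at 4 h and 24 h, and 66.9% with C1-14. Elsewhere it reached 7.19% in 1 library of SLC6A9 and stayed under 1% at SLC7A11, SLC3A2, SLC7A5, SLC7A1, SLC1A5, SLC38A1, SLC38A2 and SLC43A1. The opposite strand had 83 and 112 counts in DMSO and 215 with siGSTO1, an RPKM of 0.1002, 0.0775 and 0.231 in turn. That was 2.60-fold of the DMSO mean with siGSTO1 (exact 95% counting interval 2.21 to 3.29), so both strands were higher in that library. Its part in the sense value was not tested.

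**Figure D3:**
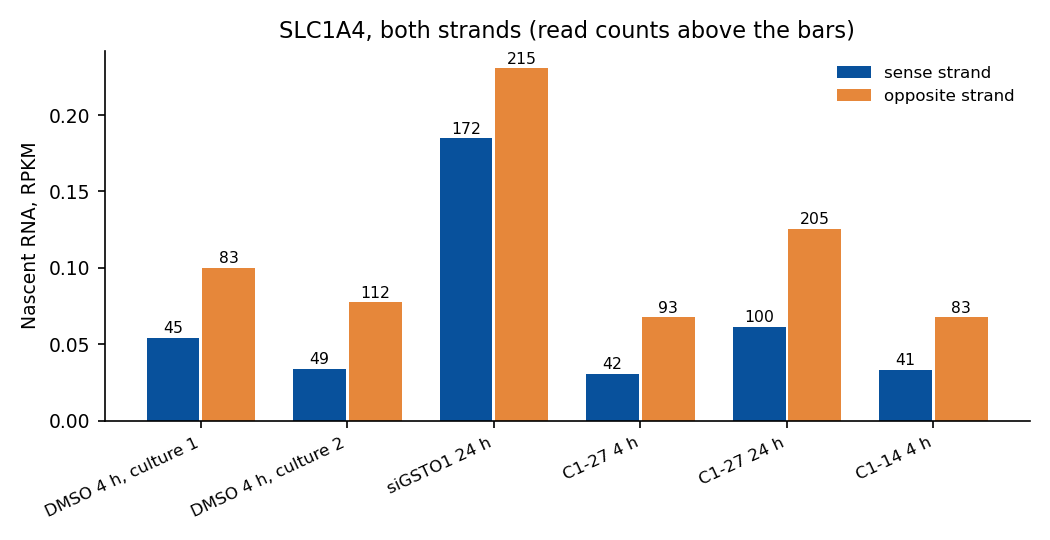
RPKM of SLC1A4 on the sense strand and on the opposite strand in each library, with the read counts written above the bars. The opposite strand is the taller bar in all 6 libraries, and both bars are tallest with siGSTO1, at 172 and 215 counts.

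The glutamine and alanine carriers SLC38A1 and SLC38A2 lie near each other on the minus strand of chromosome 12 (46576841 to 46663208 and 46751971 to 46766645), yet differed with siGSTO1. SLC38A2 (SNAT2) had an RPKM of 15.4 and 18.3 in DMSO, 29.7 with siGSTO1, 15.9 and 18.2 with C1-27 at 4 h and 24 h, and 16.6 with C1-14. The siGSTO1 value stood above all others, at 1.76-fold (1.92 and 1.62), and the remaining treated values lay between the DMSO cultures. SLC38A1 (SNAT1) had 3.26 and 3.50 in DMSO, 3.39 with siGSTO1, 3.20 and 3.01 with C1-27 at 4 h and 24 h, and 3.28 with C1-14. Its siGSTO1 value lay between the DMSO cultures. The ratio of SLC38A2 to SLC38A1 within a library was 4.74 and 5.22 in DMSO, 8.75 with siGSTO1, 4.98 and 6.05 with C1-27, and 5.05 with C1-14. SLC6A9 (GLYT1), the glycine carrier, lies on the minus strand of chromosome 1 (44462155 to 44497134). It had 80 counts in each DMSO culture, 193 with siGSTO1, 74 and 160 with C1-27 at 4 h and 24 h, and 57 with C1-14. In RPKM it was 0.0978 and 0.0561 in DMSO and 0.210 with siGSTO1, 2.73-fold of the mean (2.15 and 3.75). C1-14 was at 0.611 of the DMSO mean, below both cultures.

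With siGSTO1, then, 8 of the 10 genes lay above both DMSO cultures, and SLC3A2 and SLC38A1 lay between them. Among the 7 genes that passed the filter below, 5 lay above both, where 35.2% of all filtered genes did, and 0 lay below both. With C1-27 at 24 h, 1 of 7 lay above both (36.8% of filtered genes) and 3 of 7 lay below both (21.5%). SLC3A2, counted among those below, was at 0.9999 of DMSO culture 2. Over all 10 genes, 4 lay above both and 3 below both with C1-27 at 24 h. The shares of all genes were taken with the filter only. The counts over all 10 genes thus have no background beside them, and nothing is read from those counts about the set. After the study's measure, a gene was counted as changed from 1.4-fold upwards where it was longer than 300 bp and its mean RPKM exceeded 0.5. The methods do not say over which libraries that mean was taken, and here it was taken over treated and control. In the paper more genes fell than rose by 1.4-fold with siGSTO1, whereas more rose here. Its SLC7A11 folds were also a little lower with siGSTO1 and with C1-27 at 24 h. The cause of these differences was not tested. SLC1A4, SLC6A9 and SLC43A1 are under that RPKM limit, so 7 of the 10 genes could be counted. With siGSTO1, 4 of the 7 reached 1.4-fold up (SLC7A11, SLC38A2, SLC1A5 and SLC7A5), against 10.5% of all genes, and 0 of 7 reached it down, against 6.48%. Against DMSO culture 1 alone the count up was 2, without SLC7A5 and SLC1A5. Without the RPKM filter the count was 7 of 10, and the background rose to 30.1%. With C1-27 at 4 h, SLC7A11 alone was up, 1 of 7 against 0.457%, and 0 were down against 2.22%. At 24 h, SLC7A11 was up, 1 of 7 against 3.23%, and SLC7A5 was down, 1 of 7 against 3.49%, though 0 of 7 were down against culture 2 alone. With C1-14 the count was 0 of 7 up against 3.71% and 0 down against 1.01%. Nothing is read from these shares about the genes as a set, since the list was chosen with these contrasts known. All 4 comparisons share the DMSO cultures.

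**Figure D4:**
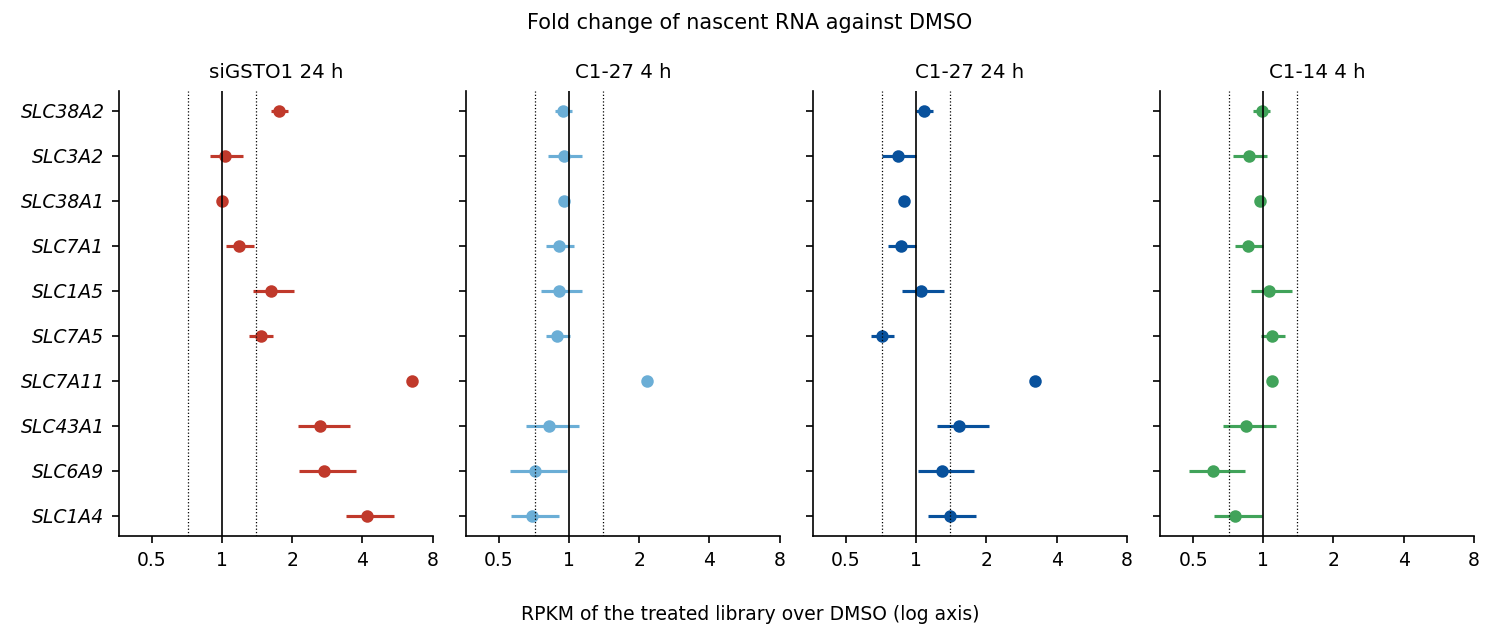
RPKM of each treated library over DMSO on a log axis, with the point against the mean of both cultures and the line joining the values against each culture. The dotted lines stand at 1.4-fold in either direction, and SLC7A11 lies beyond the upper line with siGSTO1 (6.56) and with C1-27 at 4 h and 24 h (2.17 and 3.24), but not with C1-14 (1.09).

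In the count model, edgeR's quasi-likelihood test over 14431 genes, a treated library is assumed to vary as the DMSO cultures do, with 1 residual degree of freedom. Where counts at an unadjusted p under 0.05 are given, here and below, the share of all genes at that level is not. Nothing is read from those counts. The 10 genes were chosen with the calls of these libraries known, so the calls given for them are a description and no test. The DESeq2 share of all genes was taken for siGSTO1 alone. DESeq2 counts in other comparisons thus have no background beside them, and nothing is read from them. At an adjusted p under 0.05, siGSTO1 had 2 of 10 genes up, SLC7A11 (log2 fold change 2.60, SE 0.234) and SLC1A4 (1.98, SE 0.524), against 3.00% of all genes, and 0 down against 1.16%. Down, the count was also 0 at an unadjusted p under 0.05 and by DESeq2. DESeq2 called 1 up, SLC7A11, against 0.901% of all genes. Between the settings of edgeR that were tried, the share of all genes called up ranged from 2.30% to 3.52% and the share down from 0.668% to 1.16%. The fitted values of SLC6A9 (1.36, SE 0.491), SLC43A1 (1.31, SE 0.458), SLC38A2 (0.70, SE 0.263), SLC1A5 (0.60, SE 0.279) and SLC7A5 (0.44, SE 0.240) did not pass. C1-27 at 4 h had SLC7A11 up (1.141, SE 0.236), 1 of 10 against 0.0139%, a call that DESeq2 did not make, and 0 down against 0%, also at an unadjusted p under 0.05 and by DESeq2. C1-27 at 24 h had SLC7A11 up (1.64, SE 0.234), 1 of 10 against 0.159%, and 0 down against 0.118%, with 1 gene down at an unadjusted p under 0.05 (SLC7A5) and 0 by DESeq2. For C1-14 edgeR called 0 of 10 up against 0.111% and 0 down against 0.00693%. The count was also 0 at an unadjusted p under 0.05 and by DESeq2. The median fitted log2 fold change of the 10 genes was 0.65 with siGSTO1, -0.11 and 0.04 with C1-27 at 4 h and 24 h, and -0.10 with C1-14, beside medians of all genes between -0.02 and 0.02. Scaling matters for siGSTO1, where rescaling the RPKM with TMM factors shifted the median of all genes to -0.11 and DESeq2 size factors to -0.15 on the log2 scale. SLC3A2 and SLC38A1 (1.03-fold and 1.00-fold as deposited) fall below 1 when rescaled, SLC7A5 falls under 1.4-fold, and no other direction with siGSTO1 changes.

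Between the C1-27 times at the same dose, SLC7A11 was 1.495-fold higher at 24 h than at 4 h (exact 95% counting interval 1.44 to 1.56). SLC1A4, SLC6A9 and SLC43A1 were higher by 2.00-fold, 1.82-fold and 1.86-fold on few counts, and SLC7A5 was at 0.8004. In edgeR 0 of 10 genes passed upwards, against 0.0416% of all genes, also at an unadjusted p under 0.05 and by DESeq2. Between siGSTO1 and C1-27, both at 24 h and with no shared library, SLC7A5 was 2.05-fold higher with siGSTO1 (1.94 to 2.17), SLC7A11 2.03-fold (1.96 to 2.10) and SLC38A2 1.63-fold (1.59 to 1.67). The ratios of the 10 genes ran from 1.13-fold at SLC38A1 to 3.01-fold at SLC1A4. Their median fitted log2 fold change was 0.69, beside 0.01 over all genes. The list was chosen with the siGSTO1 folds known, so nothing is read from this about the genes as a set. None of the 10 was called up by edgeR, where 0.755% of all genes were called up, and none by DESeq2.

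Genes around the 10 were taken as lists of symbols, in which a gene can stand under both an older and a newer symbol. These lists too were chosen with earlier results of these data known, so their values and calls are a description. Of 46 symbols of other plasma membrane and lysosome amino-acid transporters, 45 had a row and 28 had enough counts. edgeR called 0 of the 28 in any of the 4 comparisons with DMSO, as did DESeq2. With 3.00% of all genes called up and 1.16% down with siGSTO1, and fewer in the other comparisons, a count of 0 in 28 is near the background. At an unadjusted p under 0.05 there were 3 up and 1 down with siGSTO1 and 0 with C1-27 at either time and with C1-14. The share of all genes at that unadjusted level is not given here, so these counts have no background beside them. The median log2 fold change of the 28 with siGSTO1 was 0.01.

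Of 17 regulators of these genes, 2 rose and 1 fell with siGSTO1, against 3.00% and 1.16% of all genes. Rise and fall are here the calls of edgeR at an adjusted p under 0.05. The list was itself made largely of stress-response genes and was chosen with earlier results known. Its calls are a description. DDIT3 (CHOP), a factor that ATF4 induces, was at 1.21 and 0.848 RPKM in DMSO and 3.61 with siGSTO1. That was 3.51-fold (edgeR quasi-likelihood log2 fold change 1.71, SE 0.428). TRIB3, a pseudokinase that ATF4 and CHOP induce, was at 0.865 and 0.564 in DMSO and 2.20 with siGSTO1, 3.07-fold (1.52, SE 0.332). DESeq2 called TRIB3 but not DDIT3. DDIT3 was also at 2.08 RPKM with C1-27 at 24 h, above both DMSO cultures at 2.03-fold of their mean (1.73 and 2.46), and was the 1 regulator up there at an unadjusted p under 0.05, without passing the adjustment. It was at 1.08 with C1-27 at 4 h and 0.918 with C1-14. MYC, a factor known to act on SLC7A5 and SLC1A5, was at 22.8 and 20.2 RPKM in DMSO. It fell to 10.96 with siGSTO1 and to 10.1 with C1-27 at 24 h, and edgeR called both. Both 24 h libraries were thus at 0.510 and 0.471 of the DMSO mean, while the 4 h libraries of C1-27 and C1-14 were at 18.3 and 19.0. ATF4 itself, 16.4 and 11.7 in DMSO, was at 17.0 with siGSTO1, and NFE2L2, 5.97 and 5.91, was at 5.10, and neither passed. With C1-27 at 4 h and C1-14 no regulator was called by edgeR, by DESeq2 or at an unadjusted p under 0.05. There edgeR called 0.111% of all genes or fewer in either direction, so nothing is read from this.

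Of 29 symbols of genes that pass amino-acid levels on to mTORC1, 25 had a row and 23 were tested. Of these, edgeR called 2 up and 0 down with siGSTO1, against 3.00% and 1.16% of all genes. This list too was chosen with earlier results known, so its calls are a description. SESN2, a leucine sensor, was at 0.562 and 0.471 RPKM in DMSO and rose to 2.11 with siGSTO1. That was 4.09-fold (edgeR quasi-likelihood log2 fold change 1.92, SE 0.314). Its relative SESN3 was at 0.0684 and 0.104 in DMSO and rose to 0.310, 3.598-fold (1.72, SE 0.403). In the other 3 comparisons with DMSO none of these genes was called by edgeR or DESeq2. There edgeR called 0.159% of all genes or fewer in either direction, so nothing is read from this. SESN2 was 1.70-fold with C1-27 at 24 h, without passing the adjustment.

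Genes with profiles like that of SLC7A11 over the 4 treated libraries were ranked, with all profiles relative to the same DMSO mean. Among 7910 genes with a mean RPKM above 0.5, the nearest by root mean square difference of log2 RPKM were STARD4 (0.635), CDKN1A (0.642), FADS1 (0.679), GDF15 (0.691) and RPL23AP32 (0.711, with as few as 5 counts in a library). STARD4, a cholesterol carrier, was 3.07-fold with siGSTO1 and 1.42-fold and 3.46-fold with C1-27 at 4 h and 24 h. CDKN1A, the cell cycle inhibitor p21, was 5.44-fold, 1.22-fold and 1.78-fold in the same order. At 4 h with C1-27 all 5 were lower than SLC7A11 in fold, at 0.894 to 1.42 against 2.17. The genes nearest to SLC7A5, whose folds lie closer to 1 where more genes lie, were TRIP6, ABHD11 and TBCC, at differences of 0.137 to 0.142.

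The promoters of these genes were searched for the element that ATF4 binds with C/EBP partners (TGATGNAA, or TTNCATCA on the other strand). RefSeq windows of 300 bases, mostly upstream of a start (GRCh38.p14), were given for 9 of the 10 genes, 16 windows in all, and not for SLC7A11. The element was in 5 of the 16 windows and in 3.62% of all 35116 windows. Several windows can belong to 1 gene, and the list was chosen with its folds known. Nothing is therefore read from these shares. The stretches around 4 of the matches, printed along the strand of the gene with the match in capitals, are shown because they place the element at genes that moved as well as at genes that did not.
SLC1A4: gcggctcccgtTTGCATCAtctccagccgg
SLC3A2: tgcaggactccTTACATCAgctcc
SLC7A1: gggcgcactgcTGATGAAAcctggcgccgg
SLC38A1: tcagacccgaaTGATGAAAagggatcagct
They lie at chr2:64989381-64989410 (plus strand), chr11:62881725-62881748 (plus strand), chr13:29595663-29595692 (minus strand) and chr12:46266502-46266531 (minus strand). The fifth match is in 1 of 3 windows of SLC1A5. A gene can have several starts, and the match is also in 1 of 3 windows of SLC3A2 and in 1 of 2 windows of both SLC1A4 and SLC38A1. In these windows the letters are thus at SLC1A4 and SLC1A5, which were 4.19-fold and 1.63-fold with siGSTO1, and also at SLC3A2, SLC7A1 and SLC38A1, which were between 1.00-fold and 1.18-fold. They are not in the windows of SLC38A2, SLC7A5, SLC6A9 and SLC43A1, which were between 1.46-fold and 2.73-fold. The windows hold 300 bases around a start, so letters elsewhere at a gene, such as in an intron, would be missed. Whether the element takes part at any of these genes was not tested. The antioxidant response element that NRF2 binds (TGACNNNGC, or GCNNNGTCA) was in 4 of the 16 windows, at SLC3A2, SLC7A1, SLC1A5 and SLC7A5, against 13.3% of all windows. As above, nothing is read from that share. At SLC7A5 the antioxidant response element stands near the start, at chr16:87869491-87869520 (minus strand).
SLC7A5: ggcggggttccTGACGCAGCtgcgggcggc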

How the data were processed

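The authors deposited a table for each library, with reads assigned to genes of hg19 by strand over exons and introns. The submitters' processing notes name CASAVA 1.8.2, Bowtie 0.12.8, TopHat 1.4.1 and bedtools 2.16.2. The deposited expected counts per gene and strand are not normalized and partly not whole (59.1% to 71.1% of values were within 0.001 of a whole number). The deposited signal is coverage per bp of the gene and was used only to recover the mapped reads, 23388424 to 46017051 per library. The deposited RPKM values are reads per gene length and mapped reads, computed by the authors. Rows of ambiguous strand, 1.84% to 2.00% of counts, were left out.

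A fold change divides the RPKM of a treated library by the average of the DMSO cultures, with no pseudocount. Counts were rounded and fitted with edgeR 4.0.16 in R 4.3.3 (quasi-likelihood, TMM, 5 groups, genes longer than 300 bp that reached 10 counts in 2 or more libraries, Benjamini-Hochberg over 14431 genes, common dispersion 0.0381). DESeq2 1.42.0 was the alternative. Counting intervals are exact at 95% (scipy 1.17.1) and cover counting error only. Sequences are from RefSeq (GRCh38.p14). Python 3.11.15, pandas 2.3.3, numpy 2.4.6 and matplotlib 3.10.9 were used.

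The 10 genes, the other lists and the alternatives were chosen with earlier results of these data known. Genes outside the 10 were named where edgeR's adjusted p was under 0.05 against DMSO in at least 1 comparison, with GSTO1, the 5 genes most like SLC7A11, the 3 most like SLC7A5 and the copies of SLC7A5. SLC7A6, ATF4, NFE2L2, LOC641364, the partners of SLC3A2 and the cell markers were named outside this rule. A non-targeting siRNA and DMSO at 24 h were not analysed here.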

Additional observations from a re-analysis of the deposited data

Results flagged for a closer look

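The opposite strand of SLC1A4, which no comparison of the sense-strand genes uses, had an RPKM of 0.231 with siGSTO1, whereas DMSO cultures 1 and 2 had 0.1002 and 0.0775. It was picked out because reads outside the sense-strand measurement stood above both control cultures. The difference was not tested, and it rests on 215 counts against 83 and 112. With C1-27 at 24 h the same strand had 205 counts and an RPKM of 0.126, 1.41-fold of the DMSO mean (exact 95% counting interval 1.20 to 1.79).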

How the results depend on the processing

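Of the 6 alternatives that give folds, none turned the direction of a fold that reached 1.4-fold. With siGSTO1, the count of genes at 1.4-fold up went from 4 to 7 without the RPKM filter, and it ranged from 2 to 4 when 1 DMSO culture was left out (2 without replicate 2, where SLC7A5 and SLC1A5 fall under 1.4-fold). The count down with C1-27 at 24 h ranged from 0 to 1 when a culture was left out (0 without replicate 1) and was 0 with a pseudocount of 0.1 RPKM, so that count rests on DMSO culture 1. Without the RPKM filter, 2 genes were down with C1-27 at 4 h, 2 were up at 24 h and 1 was down with C1-14. The share of all genes without that filter was taken for siGSTO1 up alone, at 30.1%. The counts for C1-27 and C1-14 thus have no background beside them, and nothing is read from them. In the count tests with siGSTO1, DESeq2 called fewer of the genes than the main edgeR fit. More were called by edgeR without the count filter and with only the treated library and DMSO in the fit. The SLC7A11 call with C1-27 at 4 h was lost, to 0 genes, with DESeq2 size factors in edgeR, without the count filter and with DESeq2, while its fold there was 2.21 and 2.24 after rescaling with TMM and DESeq2 factors, against 2.17. The cause was not tested. After rescaling, SLC7A5 with siGSTO1 fell under 1.4-fold, which left 3 genes. The SLC7A11 fold with siGSTO1 was 5.71 with the pseudocount and 6.07 and 5.92 after rescaling with TMM and DESeq2 factors, and SLC1A4 was 1.98 with the pseudocount. The median log2 ratio of the 10 genes changed sign with the DMSO culture for C1-27 at 4 h (-0.33 to 0.04), C1-27 at 24 h (-0.05 to 0.20) and C1-14 (-0.29 to 0.03). No paired analysis was possible because only DMSO has a second culture and its numbers match no treated library. Leaving out a DMSO culture leaves edgeR no residual degree of freedom, so its tests were not run that way. SLC1A4, SLC6A9 and SLC43A1 had 41 to 255 counts, and their folds have the widest intervals.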
